A study of Brassica napus with 30 samples.

Results

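In seeds of oilseed rape, 30 gene models were counted throughout in the genotype JY1621 and almost not at all in JY1605. They were chosen by their counts: at most 3 counts summed over the 15 JY1605 libraries, and a mean of at least 1 CPM (the count scaled to the library total) in each of the 5 JY1621 groups. Chromosomes A01, A02, A09, C01, C02 and C04 and the unplaced scaffolds were left out. Of 100919 gene models in the table, 64279 lay on the 13 chromosomes kept, and 30 of these met the rule. Because these counts chose the set, the difference between the genotypes is given as a description, with no test.

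RNA was taken from seeds of JY1621 and JY1605 in 5 states each, with 3 libraries per state and 100 seeds per sample. Seeds had imbibed at 8 °C or at 25 °C, for either 8 h or 36 h, or were dry. Both genotypes are materials of Brassica napus; no allele, transgene or agent is named for either in the labels. Zeitgeber time, the hours since lights on, was 0 for dry seeds, 8 for those imbibed 8 h and 12 for those imbibed 36 h, so hours of imbibition and time of day cannot be told apart. Comparisons of 8 °C with 25 °C at one time share the time of day. The labels call the 3 libraries of a state biological replicates but do not give their seed lots, so the p-values measure the spread between these samples.

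Brassica napus is an allotetraploid that carries an A subgenome, from Brassica rapa, and a C subgenome, from Brassica oleracea, so most genes have a related copy in the other subgenome. Accessions of the crop are known to differ in gene content, with genes present in some and missing in others. Dry seeds hold messenger RNA stored during seed maturation. On imbibition that store is partly degraded and transcription resumes, and germination proceeds more slowly in the cold. The gene models are given by their IDs, which carry the chromosome and an order along it, because 0 of the IDs matched the reference table of gene names used here. No function is therefore attached to any of them, and no sequence is shown.

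In JY1621 the 30 gene models were present in every library. Each had a count in all 15 JY1621 libraries, with 0 zero values and a lowest count of 10, and levels from 0.602 to 31.4 CPM. In all, they took 51417 of 362113828 counts in JY1621, against 53 of 333582355 counts in JY1605. The highest level of any of them in a JY1605 library was 0.167 CPM. The levels of JY1621 and JY1605 libraries thus did not overlap for any of the 30, which the rule largely fixes. Counts cannot tell a gene that is missing from the JY1605 genome from one that is there and silent, or from one whose sequence differs so much that its reads were not assigned to the gene model, and this was not tested. Nor, in RNA of whole seeds, can fewer cells of a type be told from less RNA per cell.

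The label "only in JY1621" held without exception for 5 of the 30, which had 0 counts in JY1605. These were BnaC09G0431200ZS, BnaC09G0299700ZS, BnaA10G0258800ZS, BnaA07G0019800ZS and BnaC03G0407400ZS. Against a floor of 3 counts over the 15 JY1605 libraries, which is 0.00899 CPM, they were at least 234-fold to at least 692-fold higher in JY1621. Of the other 25, 9 had 1 count in JY1605, 4 had 2 and 12 had 3, and their ratios of JY1621 to JY1605 ran from 210 to 4922. The largest ratio was that of BnaA05G0319700ZS, with 5343 counts in JY1621 and 1 in JY1605. Its exact 95% binomial interval of 883 to 194445 covers counting error only, as do the floors. Neither allows for the choice of the set by these same counts, which tends to raise such ratios. Nor does the interval allow for picking the largest ratio.

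The few JY1605 counts were scattered. Of the 25, 14 had theirs in 1 library, 8 in 2 and 3 in 3, and 14 of the 15 JY1605 libraries held at least 1. Replicate 2 of the 36 h 25 °C seeds, the deepest JY1605 library with 33804896 counts, held 13 of the 53, and the next library held 7. For 3 members all 3 counts fell in 1 library. Reads that match near-identical copies, such as the copy in the other subgenome, could be counted at either, and their part in these counts was not tested.

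**Figure D1:**
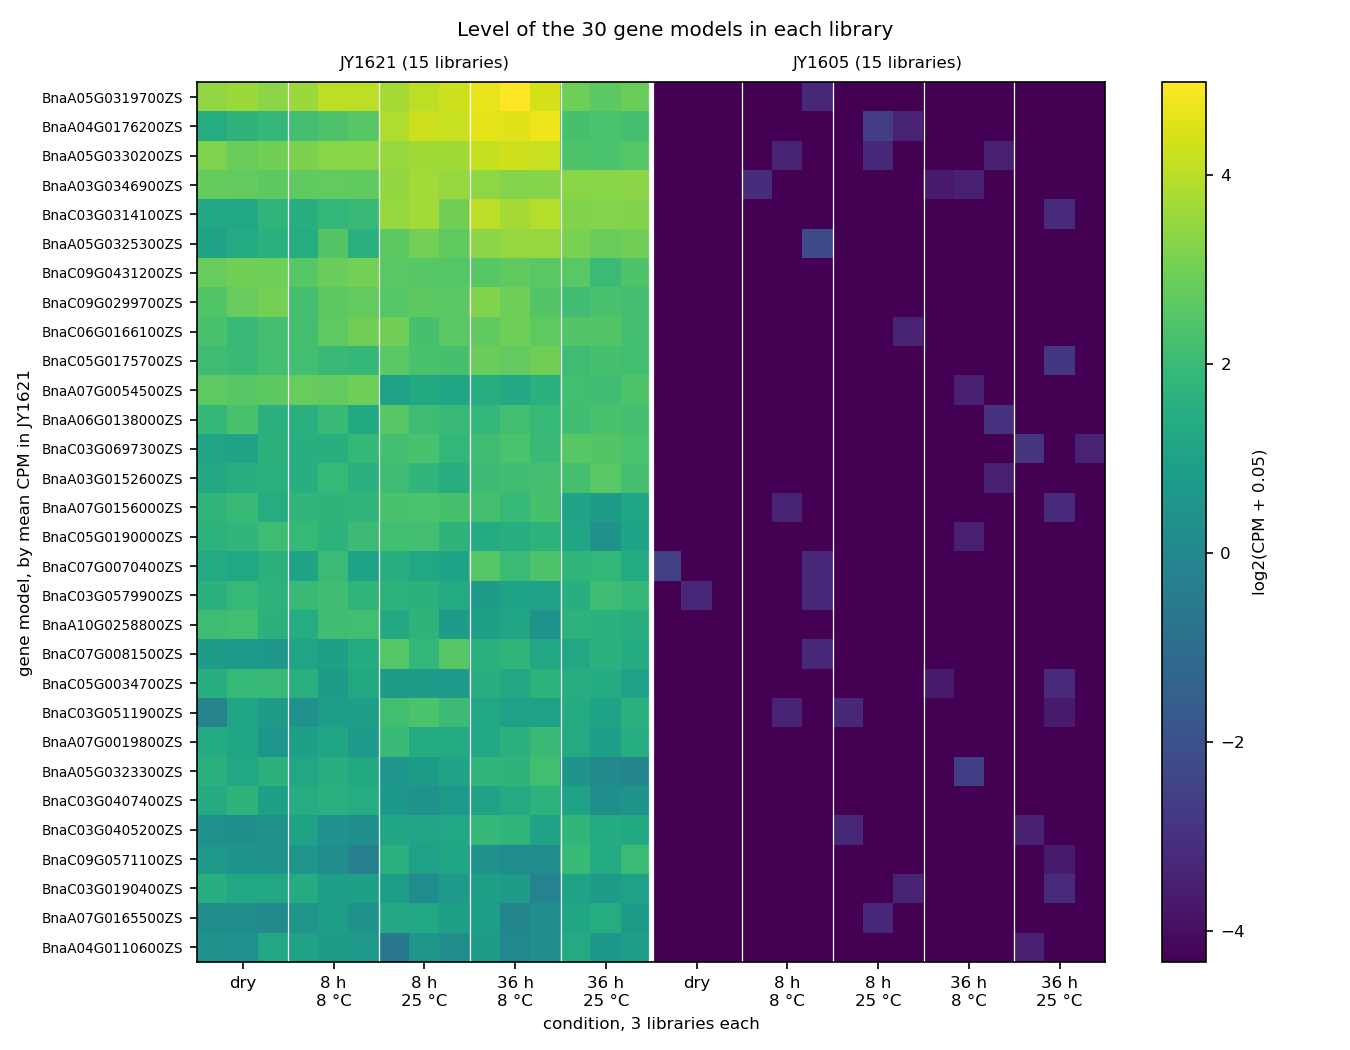
Level of each of the 30 gene models (rows, by mean CPM in JY1621) in each of the 30 libraries (columns, JY1621 left and JY1605 right, 3 libraries per state), as log2 of CPM plus 0.05. All 15 JY1621 columns are filled in every row, while the JY1605 side is at the 0-count colour except for isolated cells of 1 to 3 counts.

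The rule's limits cut through a sliding scale of JY1605 counts. Among the 22772 gene models of the kept chromosomes with at least 1 CPM in every JY1621 group, 5 had 0 JY1605 counts, 25 had 1 to 3, 35 had 4 to 10, 56 had 11 to 30, 80 had 31 to 100 and 22571 had more than 100. The 30 were 0.132% of them. Just inside the count limit stood BnaA04G0176200ZS, with 3 JY1605 counts and 11.1 CPM in JY1621, and just outside it BnaA03G0152700ZS, with 4 JY1605 counts and 9.80 CPM in JY1621. Just inside the level limit stood BnaA04G0110600ZS, whose lowest JY1621 group mean was 1.08 CPM, and just outside it BnaC06G0331000ZS, at 0.981 CPM in dry seeds with 3 JY1605 counts. With the genotypes exchanged, 6 gene models of 21294 (0.0282%) met the same limits, and their mean levels in JY1605 were 1.60 to 5.50 CPM. On the chromosomes left out, 24 more gene models met both limits in JY1621, and 17 did with the genotypes exchanged.

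Library depth bears on these counts. Totals were 15901888 to 78251632 in JY1621 libraries and 14250480 to 33804896 in JY1605 libraries. The deepest library, JY1621 replicate 1 at 36 h and 25 °C, was far above the next in that genotype, 35172867. The correlation of replicates within a group was 0.972 to 0.990, and no pair of libraries agreed within sampling noise.

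Both subgenomes contributed. The A subgenome held 14 of the 30, among 10900 gene models at 1 CPM or more in each JY1621 group, and the C subgenome 16, among 11872. They lay on 11 of the 13 chromosomes. C03 held 7, A05 and A07 held 4 each, C05 and C09 held 3 each, A03, A04 and C07 held 2 each, and A06, A10 and C06 held 1 each. As a share of gene models at 1 CPM or more in each JY1621 group, chromosomes with members held from 0.0561% (A06) to 0.281% (A07), with C03 at 0.251%. A08 and C08 held none of them. Both held gene models that met the exchanged limits, and so did A10 and C03, which also held members.

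No 2 of the 30 were next to each other in ID order. Between successive members on a chromosome the median distance was 680 gene models over 19 pairs, and 5 pairs lay within 100. The closest group was on A05, where all 4 members, BnaA05G0319700ZS, BnaA05G0323300ZS, BnaA05G0325300ZS and BnaA05G0330200ZS, fell within a stretch of 106 of its 5002 gene models, 36, 20 and 49 apart. On C03, BnaC03G0405200ZS and BnaC03G0407400ZS lay 22 apart. By CPM, each of the 4 on A05 was highest in JY1621 seeds after 36 h at 8 °C, as were 12 of the 30. Their lowest group by CPM differed: dry seeds for BnaA05G0325300ZS and 36 h 25 °C for the others. These ranks have no correction for library composition. In the edgeR fit, which has one, BnaA05G0323300ZS was at a log2 fold change of −0.14 for 36 h 8 °C over dry seeds, not called.

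Most of the tested gene models nearest the 30 were counted in both genotypes. The nearest tested gene model on each side was read, 60 in all, of which 34 were directly adjacent and the farthest was 8 away. Gene models that failed the filter on low counts were skipped, so being counted is partly fixed by this choice. Of the 60, 34 had a mean of at least 1 CPM in both genotypes. The share of all tested gene models at that level was not worked out. By the edgeR quasi-likelihood test over the 5 states, 12 were higher in JY1621 than in JY1605, 9 were lower and 39 were not called, where a call needs an adjusted p under 0.05 and a log2 fold change of at least 1 in size. That is 20% higher and 15% lower, against 11.4% and 9.63% of all 57945 gene models tested. Their median log2 fold change was 0.09, against −0.01 over all tested. For 13 of the 30, neither neighbour was called. A neighbour not called was not thereby equal, as some fits gave an SE far above the fold change. The neighbours of BnaA07G0165500ZS, among the 13, had 48 counts in JY1621 against 1215 in JY1605 (SE 1618) and 1 against 54 (SE 3505). BnaC03G0511700ZS had 3 against 83 (SE 4670) and BnaC03G0190500ZS 178 against 220 (SE 1415). BnaA05G0319600ZS went the other way, with 105 against 37 (SE 7699). An SE here is the fold change over the square root of F, so such values mark an F near 0, not a measured spread. For these neighbours the test cannot decide whether the genotypes differed, and they stand among the 39 not called. Neighbours of members close together share a stretch of chromosome, and no test of these shares was made.

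A few members had a neighbour that was itself nearly lacking in JY1605. BnaA03G0152700ZS, directly after BnaA03G0152600ZS, had 3577 counts in JY1621 and 4 in JY1605 (log2 fold change 10.19 ± 0.212 SE). BnaA04G0110700ZS, directly after BnaA04G0110600ZS, had 2720 counts in JY1621 and 6 in JY1605 (8.69 ± 0.278). BnaC03G0314000ZS, directly before BnaC03G0314100ZS, had 726 and 4 (6.35 ± 0.464). These and one more were the 4 neighbours with at most 10 JY1605 counts. The other, BnaC06G0166000ZS, directly before BnaC06G0166100ZS, had 375 counts in JY1621 and 0 in JY1605 and was at least 115-fold higher in JY1621. It missed the set by its level in JY1621, a mean of 1.14 CPM that did not reach 1 CPM in every group. The neighbours were singled out here after their values were seen, by their few JY1605 counts. With so few, they passed the filter on low counts through JY1621 alone. Their fold changes are thus a description, with no p-value.

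Only BnaC09G0299700ZS had both neighbours called higher in JY1621. BnaC09G0299600ZS averaged 68.7 CPM in JY1621 and 0.274 CPM in JY1605, a log2 fold change of 8.28 ± 0.154 SE. On the other side, BnaC09G0299900ZS averaged 7.55 CPM in JY1621 and 0.0890 CPM in JY1605, a log2 fold change of 7.21 ± 0.211 SE. These neighbours too were singled out after their values were seen. On A10 and C05 the neighbours differed the other way. Both neighbours of BnaA10G0258800ZS were lower in JY1621, by −2.73 and −2.31 on the log2 scale, and both of BnaC05G0190000ZS were lower, by −1.71 and −4.30.

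Over wider windows the median difference between the genotypes was small. In the 10 tested gene models on each side, the median log2 fold change of JY1621 over JY1605 lay within 0.5 of 0 for 28 of the 30 members, and from −0.52 to 0.54 over all of them. Between 1 and 10 of the 20 gene models in a window were called in either direction, against 21% of all tested. A median near 0 can thus go with many calls. The most were around BnaC03G0314100ZS, with 8 higher and 2 lower, and BnaC03G0697300ZS, with 4 and 6. Around BnaC09G0299700ZS 9 were higher and 0 lower. Among the fewest were those around BnaC05G0175700ZS, with 0 and 1. No windows away from the 30 were read beside these.

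**Figure D2:**
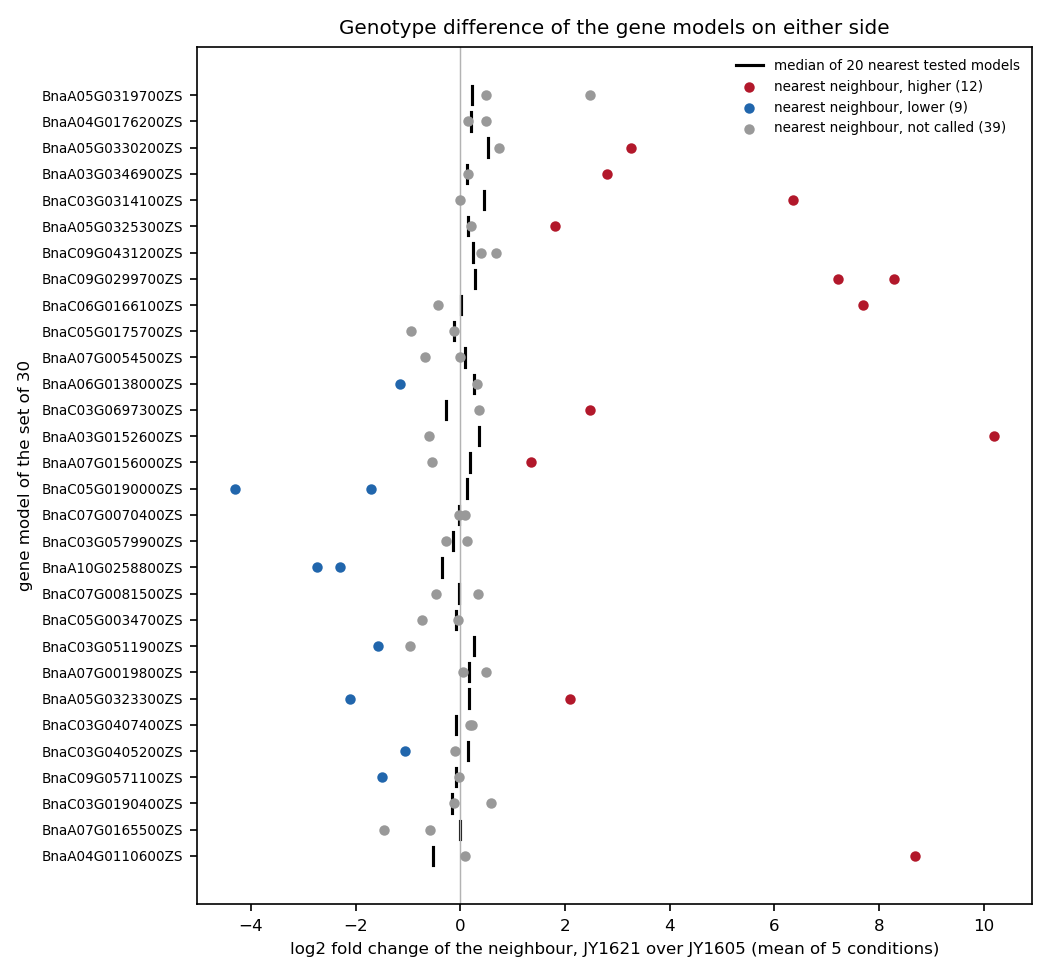
Log2 fold change of JY1621 over JY1605, averaged over the 5 states, of the nearest tested gene model on each side (points) of each of the 30 gene models (rows), with the median of the 20 nearest tested gene models (black tick). The ticks all lie between −0.52 and 0.54, while single neighbours range from −4.30 to 10.19.

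The members were low to moderately expressed in JY1621. Their means over the 5 groups ran from 1.52 to 15.01 CPM with a median of 3.39, and 10 of them reached 5 CPM. Their summed level, in CPM with no correction for composition, averaged 110.6 ± 2.74 CPM in dry seeds. At 8 h it was 121.4 ± 9.54 CPM in the 8 °C seeds and 156 ± 5.16 CPM in the 25 °C seeds, and at 36 h it was 189 ± 4.18 CPM in the 8 °C seeds and 122 ± 3.59 CPM in the 25 °C seeds (SD, n = 3 each). The same sum in JY1605 groups was 0.0580 to 0.196 CPM. The sum was thus highest after 36 h in the cold, where its lowest library, at 184.6 CPM, lay above every library of the other states. Most of its excess over the sum at 36 h 25 °C, though not most of the sum itself, lay in 4 members. These were BnaA05G0319700ZS, BnaA04G0176200ZS, BnaA05G0330200ZS and BnaC03G0314100ZS, picked as the highest at 36 h 8 °C. They summed to 84.5 ± 3.50 CPM at 36 h 8 °C, against 26.5 ± 0.686 CPM at 36 h 25 °C. The other 26 summed to 104.8 ± 1.45 CPM at 36 h 8 °C, against 95.4 ± 3.25 CPM at 36 h 25 °C. At 36 h 8 °C their libraries overlapped those of 8 h 25 °C, at 99.7 ± 6.07 CPM (SD, n = 3 each). A correction with the TMM factors, described below, raises dry seeds against imbibed ones. These factors were 0.796 to 0.805 in dry JY1621 seeds and 1.13 in each JY1621 library at 36 h 8 °C. The order of the states in these sums was not worked out with them.

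They did not share 1 course. By CPM, the highest group mean was at 36 h 8 °C for 12 members and at 8 h 25 °C for 7. It was in dry seeds for 4, at 36 h 25 °C for 4 and at 8 h 8 °C for 3. With a correction for composition some of these ranks change. BnaC09G0299700ZS, highest by CPM at 36 h 8 °C, was there at −0.36 against dry seeds on the log2 scale in the edgeR fit, not called. The ratio of the highest to the lowest group mean ran from 1.46 to 7.79 with a median of 2.16, and it was under 2 for 12 of the 30. The rule asks for 1 CPM in every JY1621 group, so a gene model that is silent in 1 state could not be a member.

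Temperature was compared first at 36 h, where the cold is set against 25 °C at the same hour of day. Of the 30, 5 were higher at 8 °C and 1 was lower, which is 16.7% and 3.33%, against 14.3% and 20.1% of all gene models tested. Without replicate 1 of either group, 2 were lower. The median log2 fold change of the 30 was 0.20, against −0.03 over all tested. These shares are of gene models of which none could be absent from a JY1621 group, while the background holds many that can.

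Most gene models given by library here and below were named in part because their libraries did not overlap in CPM. That trait is thus a description. BnaA04G0176200ZS had the largest change. It had 24.2, 23.6 and 27.0 CPM at 36 h 8 °C, against 4.78, 5.04 and 4.70 CPM at 36 h 25 °C. Every cold library lay far above every warm one, for a log2 fold change of 2.35 ± 0.158 SE (edgeR adjusted p = 1.81e-15). BnaA05G0319700ZS, the most abundant of the 30, had 25.4, 31.4 and 20.9 CPM at 36 h 8 °C, against 7.51, 6.08 and 7.37 CPM at 36 h 25 °C. These groups did not overlap either, with a log2 fold change of 1.87 ± 0.163 SE (edgeR adjusted p = 4.26e-12).

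BnaA05G0330200ZS, next in abundance and on the same stretch of A05, had 17.9, 19.9 and 18.0 CPM at 36 h 8 °C, against 5.28, 5.04 and 5.71 CPM at 36 h 25 °C. Its libraries were again apart, with a log2 fold change of 1.79 ± 0.149 SE (edgeR adjusted p = 1.22e-13). The other gene models called higher, named after their values were seen, were BnaA05G0323300ZS at 1.64 ± 0.292 and BnaA07G0156000ZS at 1.11 ± 0.229 on the log2 scale. Of the 5 higher ones, 3 were thus on A05. The 1 called lower was BnaC09G0571100ZS, with 1.31, 1.09 and 1.07 CPM at 36 h 8 °C, against 3.94, 2.52 and 4.04 CPM at 36 h 25 °C. Its groups did not overlap, at a log2 fold change of −1.61 ± 0.290 SE (edgeR adjusted p = 1.00e-05).

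At 8 h fewer were called higher. Of the 30, 2 were higher at 8 °C and 3 were lower, against 16.9% and 16.4% of all gene models tested, and 4 were higher without replicate 2 of the 8 h 25 °C seeds. With scaling by library size alone, with no correction for composition, 1 was higher and 5 were lower. The median log2 fold change was 0.07, against 0.01 over all tested, and with library size alone both medians were below 0, at −0.24 and −0.23. BnaA07G0054500ZS had 6.93, 6.63 and 7.58 CPM at 8 h 8 °C, against 1.93, 2.46 and 2.15 CPM at 8 h 25 °C. All 3 cold libraries were higher than the warm ones, with a log2 fold change of 1.99 ± 0.215 SE (edgeR adjusted p = 4.27e-10). BnaC03G0407400ZS, 1 of the 5 with no JY1605 count, was the other one higher in the cold, by 1.23 ± 0.308 (edgeR adjusted p = 0.000887).

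BnaA04G0176200ZS, so much higher in the cold at 36 h, was lower there at 8 h. It had 4.56, 5.21 and 5.86 CPM at 8 h 8 °C, against 14.7, 19.3 and 18.5 CPM at 8 h 25 °C. The groups did not overlap, for a log2 fold change of −1.44 ± 0.165 SE (edgeR adjusted p = 1.63e-09). BnaC03G0314100ZS had 2.81, 3.53 and 3.79 CPM at 8 h 8 °C, against 11.2, 12.7 and 7.67 CPM at 8 h 25 °C. It too was lower in every cold library, with a log2 fold change of −1.34 ± 0.207 SE (edgeR adjusted p = 8.10e-07). The last of the 3, BnaC03G0511900ZS, was lower by −1.18 ± 0.292 (edgeR adjusted p = 0.000615).

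The temperature effect itself was then compared between the times, as the effect at 36 h minus that at 8 h. It was called for 11 of the 30, with 6 higher at 36 h and 5 lower, against 23% and 24.9% of all gene models tested. Without replicate 1 of the 36 h 25 °C seeds, the deepest library, 3 were lower. With library size alone 10 were higher and 4 were lower, against 16499 and 11673 of the 57945 tested. The median difference of the 30 was 0.23, against −0.06 over all tested. BnaA04G0176200ZS had the largest, 3.79 ± 0.228 SE on the log2 scale (edgeR adjusted p = 5.53e-17), and was the 1 member called in opposite directions at the 2 times. In BnaC03G0314100ZS the difference was 2.02 ± 0.273 (edgeR adjusted p = 5.18e-08): it had 16.5, 13.3 and 15.3 CPM at 36 h 8 °C, against 9.23, 9.57 and 9.24 CPM at 36 h 25 °C, where its fold change was not called. In BnaA07G0054500ZS the difference was −2.78 ± 0.296 (edgeR adjusted p = 2.39e-10). That gene model had 2.70, 2.40 and 3.02 CPM at 36 h 8 °C, against 4.41, 4.30 and 5.25 CPM at 36 h 25 °C, the reverse of its order at 8 h.

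**Figure D3:**
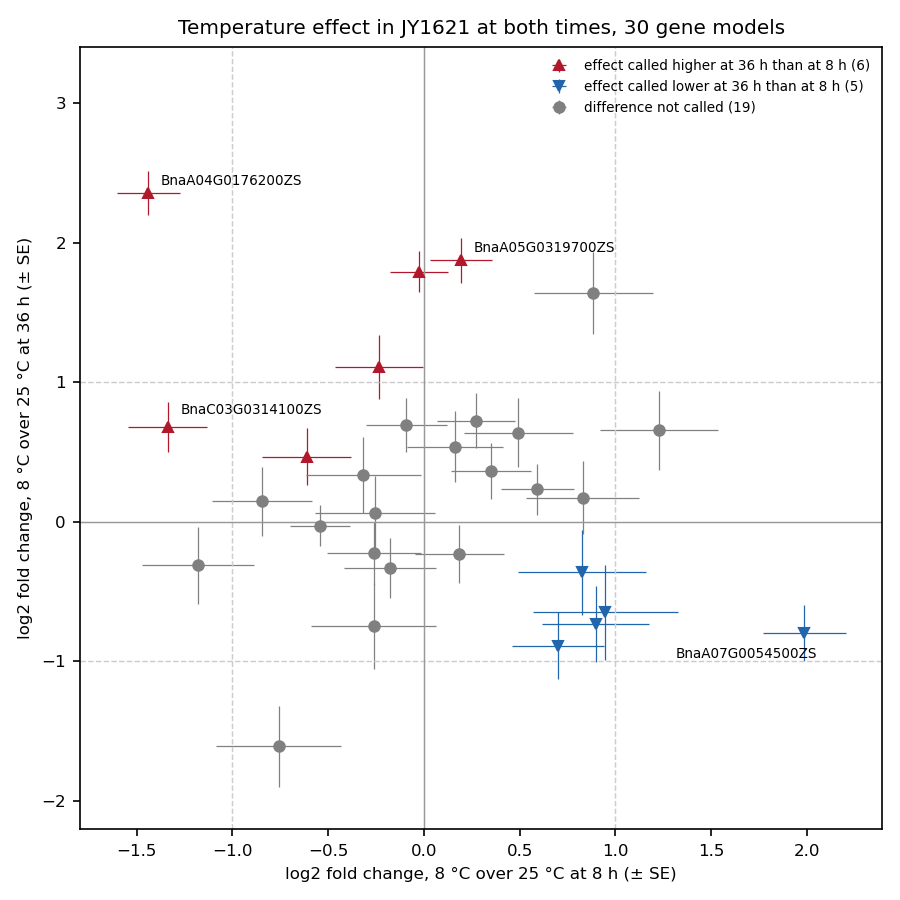
Log2 fold change of 8 °C over 25 °C in JY1621 seeds at 8 h (x axis) and at 36 h (y axis) for the 30 gene models, with bars of 1 SE; colours mark the 11 whose effect differed between the times and dashed lines a log2 fold change of 1 in size. BnaA04G0176200ZS lies at −1.44 and 2.35 and BnaA07G0054500ZS at 1.99 on the x axis, in opposite corners.

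Imbibed seeds were set against dry seeds next. Fold changes here are scaled with TMM factors, which correct for a library's composition and were 0.796 to 0.805 in dry JY1621 seeds but 1.10 to 1.16 after 36 h at 25 °C, so they come out lower than ratios of CPM. Without these factors the median over all gene models moves by 0.49 at 8 h 25 °C, 0.17 at 8 h 8 °C, 0.49 at 36 h 25 °C and 0.50 at 36 h 8 °C on the log2 scale, and the counts below move with it.

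After 8 h at 8 °C, none of the 30 was called against dry seeds by edgeR or by DESeq2, with 3 at an unadjusted p under 0.05 by edgeR, against 6.01% higher and 0.48% lower of all gene models tested. After 8 h at 25 °C, 3 were higher and 7 were lower than in dry seeds, against 22.2% and 19.4% of all tested, and with scaling by library size alone 6 were higher and 2 were lower. Without replicate 3 of the dry seeds, or replicate 1 or 3 of the 8 h 25 °C seeds, 5 were higher. The median log2 fold change was −0.13 at 8 °C and −0.12 at 25 °C, against −0.02 and 0.00 over all tested. With library size alone these medians changed sign, to 0.07 and 0.40, against 0.15 and 0.49 over all tested.

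The 3 higher ones at 25 °C were BnaA04G0176200ZS, BnaC03G0314100ZS and BnaC07G0081500ZS. BnaA04G0176200ZS, whose values after 8 h at 25 °C stand above, had 2.67, 3.30 and 3.64 CPM in dry seeds, below them all, for a log2 fold change of 1.93 ± 0.173 SE (edgeR adjusted p = 2.86e-12). BnaC03G0314100ZS had 2.25, 2.36 and 3.38 CPM in dry seeds, below each 8 h 25 °C library, at a log2 fold change of 1.46 ± 0.210 SE (edgeR adjusted p = 1.66e-07). BnaC07G0081500ZS was higher by 1.14 ± 0.269 (edgeR adjusted p = 0.000357). Of the 7 lower ones, BnaA07G0054500ZS fell most. It had 6.31, 5.85 and 6.21 CPM in dry seeds, above each 8 h 25 °C library, and its log2 fold change at 25 °C was −1.98 ± 0.215 SE (edgeR adjusted p = 3.50e-10).

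After 36 h at 8 °C, 3 of the 30 were higher than in dry seeds and 4 were lower, against 25.5% and 22.1% of all tested, and 6 were higher and 2 lower with library size alone. After 36 h at 25 °C, 2 were higher and 8 were lower, against 26.2% and 20% of all tested, and 5 were higher and 1 was lower with library size alone. The median log2 fold change at 36 h 25 °C was −0.27, against 0.18 over all tested. With library size alone it was 0.21, against 0.67. It lay 0.45 below the median of all tested in both cases, and 0.27 below with no filter on low counts. At 36 h 8 °C the median was −0.10, against 0.03, and with library size alone 0.40, against 0.53.

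The 2 gene models higher than dry at both temperatures after 36 h were BnaC03G0314100ZS and BnaA05G0325300ZS. BnaC03G0314100ZS had log2 fold changes of 1.97 ± 0.206 SE at 8 °C (edgeR adjusted p = 1.18e-10) and 1.29 ± 0.209 SE at 25 °C (edgeR adjusted p = 1.31e-06). BnaA05G0325300ZS had 10.2, 11.2 and 11.4 CPM at 36 h 8 °C and 8.52, 7.11 and 7.68 CPM at 36 h 25 °C, against 2.00, 2.55 and 3.00 CPM in dry seeds. All 6 imbibed libraries were above the dry ones, with log2 fold changes of 1.60 ± 0.235 SE at 8 °C (edgeR adjusted p = 2.56e-07) and 1.13 ± 0.237 SE at 25 °C (edgeR adjusted p = 7.86e-05). BnaA04G0176200ZS was called higher than dry at 36 h 8 °C, by 2.45 ± 0.171 (edgeR adjusted p = 2.66e-15), and not at 36 h 25 °C.

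The 8 gene models lower than dry at 36 h 25 °C were not called against dry at 36 h 8 °C. A call at 1 temperature only is not in itself a difference between the temperatures. BnaC09G0431200ZS, 1 of the 8, was at −1.01 at 36 h 25 °C and −0.77 at 36 h 8 °C. Its direct change, 8 °C over 25 °C, was 0.23 (edgeR adjusted p = 0.267). BnaA05G0319700ZS, also of the 8, was called in that direct comparison, as given above. It had 10.9, 11.8 and 10.1 CPM in dry seeds, above its 3 libraries at 36 h 25 °C. Its log2 fold change against dry was −1.12 ± 0.170 SE (edgeR adjusted p = 6.20e-07). BnaC09G0299700ZS was another, with 4.27, 4.93 and 4.55 CPM at 36 h 25 °C, against 5.40, 6.96 and 8.09 CPM in dry seeds. Its groups did not overlap, at a log2 fold change of −1.08 ± 0.201 SE (edgeR adjusted p = 1.44e-05). With library size alone these were −0.63 and −0.59, and neither was called, and without replicate 3 of the dry JY1621 seeds BnaC09G0299700ZS was at −0.93 and not called. At 36 h 8 °C the 4 lower ones were BnaA07G0054500ZS, at −1.69 ± 0.206 (edgeR adjusted p = 4.39e-09), BnaC03G0579900ZS, BnaA10G0258800ZS and BnaC03G0190400ZS, the last 3 between −1.58 and −1.21.

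**Figure D4:**
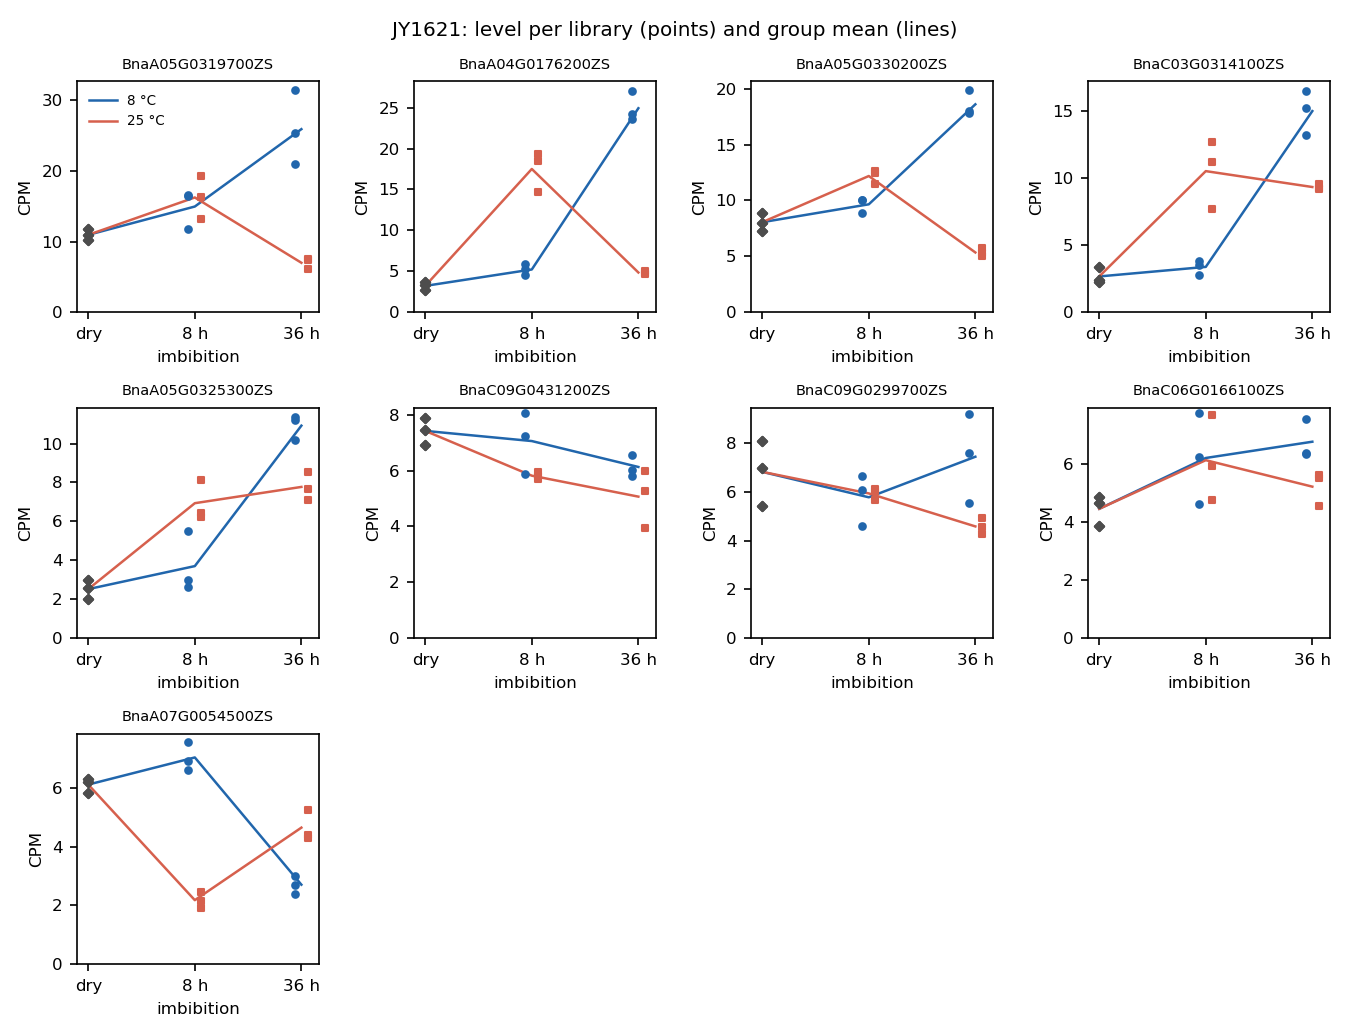
CPM of 9 of the 30 gene models in JY1621 seeds by hours of imbibition: points are the 3 libraries of a group (blue circles 8 °C, red squares 25 °C, grey diamonds dry seeds, which both lines start from), and lines join group means. BnaA04G0176200ZS stands higher at 25 °C after 8 h and higher at 8 °C after 36 h, while BnaC09G0431200ZS and BnaC06G0166100ZS keep a highest group mean of 1.46 and 1.52 times their lowest.

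Of the 30, 10 were called in none of the 6 comparisons of 2 groups. The share of all tested gene models called in none was not worked out. This count thus cannot tell whether the set is steadier than others. The steadiest by group means were BnaC09G0431200ZS, with a highest over lowest group mean of 1.46, and BnaC06G0166100ZS, with 1.52 (the ratio of BnaA06G0138000ZS, 1.49, lies between, at a lower level). BnaC09G0431200ZS, which had no JY1605 count, had 5.87, 7.25 and 8.05 CPM at 8 h 8 °C, 5.96, 5.80 and 5.69 at 8 h 25 °C, 5.80, 6.55 and 6.04 at 36 h 8 °C, and 5.99, 3.95 and 5.25 at 36 h 25 °C, against 6.92, 7.90 and 7.45 in dry seeds. Only the 36 h 25 °C seeds were called against dry, at −1.01 ± 0.185 (edgeR adjusted p = 1.29e-05), just past the fold limit. BnaC06G0166100ZS had 4.62, 6.26 and 7.76 CPM at 8 h 8 °C, 7.71, 4.77 and 5.93 at 8 h 25 °C, 6.40, 7.57 and 6.35 at 36 h 8 °C, and 5.51, 5.62 and 4.55 at 36 h 25 °C, against 4.85, 3.86 and 4.67 in dry seeds. It was called in no comparison, and its groups overlapped in most of them.

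**Figure D5:**
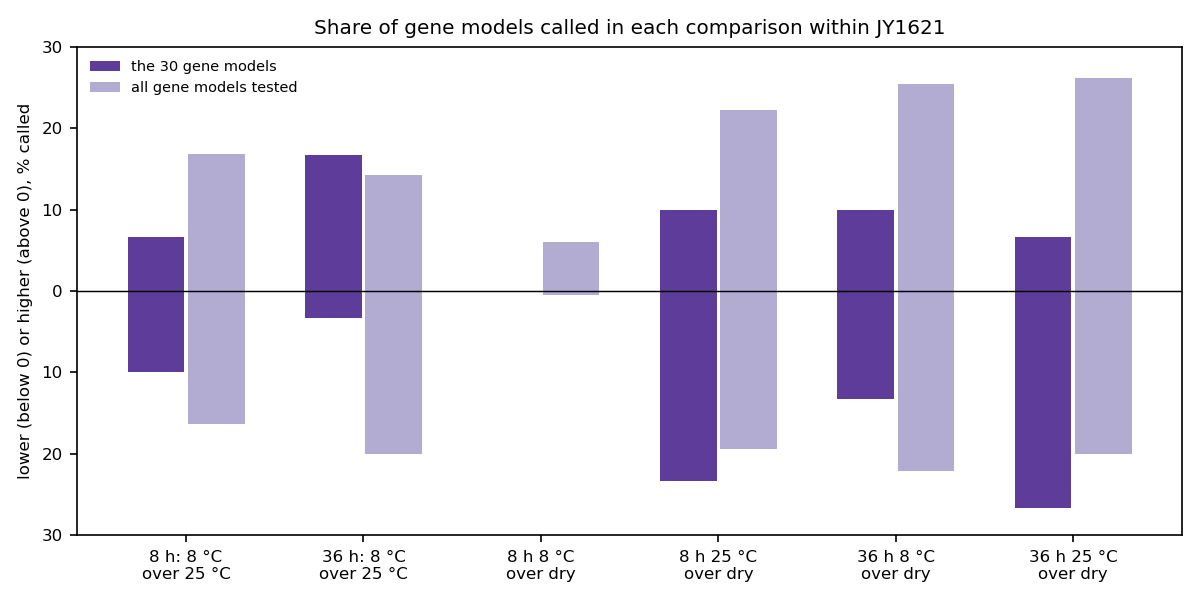
Percent of gene models called higher (above 0) and lower (below 0) in each of the 6 comparisons of 2 groups within JY1621, for the 30 gene models (dark) and for all 57945 tested (light). The dark bars are below the light ones for higher calls in every comparison except 36 h 8 °C over 25 °C, at 16.7% against 14.3%, and no bar is drawn for the 30 at 8 h 8 °C over dry. The rule keeps out gene models that are silent in a JY1621 group, while the light bars include such gene models.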

How the data were processed

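The authors deposited a table of raw counts for 100919 gene models in 30 libraries. The tools named in the submitters' processing notes are HISAT2 2.2.1, featureCounts 2.0.6 and, for an unstated purpose, DESeq2 1.42.0. For the genome build, the strand setting and reads with several matches, the sources used here give nothing. The set and the comparisons were chosen with earlier results of these data known.

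CPM is the count over the library total, 14250480 to 78251632. Differences were tested with edgeR 4.0.16 in R 4.3.3 (quasi-likelihood F-test, robust, TMM factors) on all 30 libraries together, with 1 mean for each of 10 groups. filterByExpr (minimum count 10, total 15) kept 57945 gene models, the 30 among them. Calls needed a Benjamini-Hochberg adjusted p over all tested under 0.05 and a log2 fold change of at least 1 in size; SEs come from the fold change and its F. On simulated counts for 8 °C over 25 °C at 36 h in JY1621, over 53464 gene models, 98% of 100 models seeded at log2 1.5 and 100% of 100 at 3 were recovered, and 4 others were called.

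Gene models named in full were the 3 with the highest mean, the 2 steadiest with at least 5 CPM, and up to 2 called in each direction of each of the 7 comparisons with a group mean of at least 5 CPM and no overlap of libraries. Those with calls in counts of 5 or fewer are also named. Alternatives were other size factors, no composition factors, no filter, the DESeq2 1.42.0 Wald test, a fit of JY1621 alone, a replicate block, no fold minimum, other limits of the rule, and leaving out each library.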

Additional observations from a re-analysis of the deposited data

Results flagged for a closer look

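The effect of temperature in JY1621, as the log2 fold change of 8 °C over 25 °C, differed between 36 h and 8 h by its own test (edgeR, adjusted p under 0.05 and a difference of at least 1 in size) for 11 of the 30 gene models. It was higher at 36 h for 6 (20%) and lower for 5 (16.7%), against 23% and 24.9% of all 57945 gene models tested. With scaling by library size alone, 10 were called higher and 4 lower, against 16499 and 11673 of all tested. It was higher at 36 h by 3.79 in BnaA04G0176200ZS, 2.02 in BnaC03G0314100ZS, 1.82 in BnaA05G0330200ZS, 1.68 in BnaA05G0319700ZS, 1.34 in BnaA07G0156000ZS and 1.08 in BnaA05G0325300ZS. It was lower at 36 h, at −2.78 in BnaA07G0054500ZS, −1.63 in BnaA10G0258800ZS, −1.59 in BnaC03G0579900ZS, −1.59 in BnaA04G0110600ZS and −1.19 in BnaC03G0190400ZS. The hour of day at sampling, zeitgeber time 12 at 36 h and 8 at 8 h, moved with this difference, and its part was not tested.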

How the results depend on the processing

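No log2 fold change of a gene model named by the rule changed direction. Of 223 such fold changes and counts from other settings, 196 kept their direction and call (counts, within 1.5 times), and 304 of 312 did when a library was left out. With scaling by library size alone the members' median changed sign, to −0.24 at 8 h 8 °C over 25 °C and, against dry seeds, to 0.07 at 8 h 8 °C, 0.40 at 8 h 25 °C, 0.40 at 36 h 8 °C and 0.21 at 36 h 25 °C. There 1 member was higher and 5 lower at 8 h 8 °C over 25 °C, 10 had a higher temperature effect at 36 h, and against dry seeds 6 and 2 were called higher and lower at 8 h 25 °C, 5 and 1 at 36 h 25 °C, and 6 and 2 at 36 h 8 °C. With no fold minimum, the members called higher and lower were 9 and 7 at 8 h 8 °C over 25 °C and 11 and 5 at 36 h. Against dry seeds they were 6 and 11 at 8 h 25 °C and 6 and 9 at 36 h 8 °C. At 36 h 25 °C 17 were then called against dry seeds, 5 of them higher and the rest lower. At 8 h 8 °C 1 was then lower than dry (BnaC05G0034700ZS). Of the 60 neighbours, 26 were then higher and 17 lower. Fewer or more gene models meet other limits of the rule: 5 with 0 JY1605 counts, 65 with up to 10, 15 at 2 CPM and 60 at 0.5 CPM.

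Leaving out 1 library at a time gave 29 to 38 members; 2 to 4 higher and 3 to 4 lower at 8 h 8 °C over 25 °C; 5 to 5 and 1 to 2 at 36 h; 5 to 7 and 3 to 6 for the difference; against dry seeds 3 to 5 and 6 to 7 at 8 h 25 °C, 0 and 0 at 8 h 8 °C, 2 to 3 and 6 to 9 at 36 h 25 °C, and 3 to 3 and 3 to 5 at 36 h 8 °C; and 11 to 12 and 8 to 10 neighbours. The library that gave 4 higher at 8 h was JY1621 8 h 25 °C replicate 2. JY1621 36 h 25 °C replicate 1, the deepest, gave 2 lower at 36 h and 3 lower differences, and 36 h 8 °C replicate 1 also gave 2. Without dry replicate 3, 8 h 25 °C replicate 1 or 8 h 25 °C replicate 3, 5 were higher at 8 h 25 °C than in dry seeds. The cause of these changes was not tested.

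Replicate numbers do not pair the samples: deviations of same-numbered samples correlated at −0.0907 to 0.103 over 135 pairs of groups. With the replicate block 2 and 3 members were called higher and lower at 8 h, 5 and 1 at 36 h, and 2 and 9 at 36 h 25 °C over dry, and no count moved by more than 1.5 times. The lowest count of a member in a JY1621 library was 10.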
